A study of Mus musculus with 14 samples.

Results

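The genes described are 5 inhibitors of cyclin-dependent kinases (Cdkn1a, Cdkn1b, Cdkn2a, Cdkn2c and Cdkn2d) and 5 other genes known as targets of the tumour suppressor p53 (Mdm2, Ccng1, Trp53inp1, Bbc3 and Phlda3). They were chosen by name, not by a measured value, and are 10 of the 22598 genes in the deposited tables. Of the 10, 9 were among the 11591 genes tested, and Cdkn2a had too few reads to be tested. Their levels were measured by paired-end RNA sequencing of total RNA from mouse CD4 T cells in culture. Naive cells sorted from spleen were activated and polarized to Th2 cells, which serve in allergy and in defence against worms. The 4 groups were knockout cells at day 14 (n = 3), wild-type cells at day 14 (n = 3), knockout cells at day 7 (n = 4) and wild-type cells at day 7 (n = 4). The knockout, labelled Ago134, names a combined loss of Ago1, Ago3 and Ago4, 3 of the Argonaute genes, whose proteins bind small RNAs. Knockout below means the libraries with that label, since the reads of Ago1 alone of the 3 genes were absent or nearly absent in them. All groups share the C57BL/6J strain, the sort for CD4 and TCRb, and the Th2 culture. The series text calls the mice littermates and gives the later time in 2 ways, and the day 14 of the sample labels is used here. The labels do not say how the alleles were made, how old the mice were, or whether each library had its own mouse or culture. What the p-values measure is thus the spread among these libraries alone, and it may be technical.

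Cyclin-dependent kinases drive cells from G1 into S phase, and their inhibitors hold that step back. The Cip/Kip proteins p21 (Cdkn1a) and p27 (Cdkn1b) bind cyclin-kinase complexes of several kinds, while the INK4 proteins p16 (Cdkn2a), p18 (Cdkn2c) and p19 (Cdkn2d) bind CDK4 and CDK6. DNA damage and other stress stabilise p53, which induces Cdkn1a as well as its own antagonist Mdm2 and genes of cell death. Resting T cells hold much p27, which falls on activation, and p18 limits T cell proliferation.

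Total counts per library ran from 23326248 to 35803197, and 12534 to 13241 genes had reads. Ago1 had 0, 0 and 2 reads in the knockout libraries at day 14 against 100, 96 and 67 in wild type, and 0 reads in each knockout library at day 7 against 128 to 141 in wild type. Ago3 kept 40 to 53 reads in the knockout libraries at day 14 against 55 to 143 in wild type, and 39 to 69 against 74 to 159 at day 7, and it was not called (log2 fold change -1.01 ± 0.35 and -0.88 ± 0.30, adjusted p = 0.136 and 0.154). Ago4 went against the label, with 161, 141 and 79 reads in knockout against 10, 36 and 91 in wild-type libraries at day 14, and 62 to 103 against 11 to 26 at day 7 (1.42 ± 0.56 and 2.36 ± 0.51, adjusted p = 0.17 and 0.154), and it was called at day 14 without wild-type library 3 (2.30, adjusted p = 0.0115). The labels do not say which exons the alleles lack, so gene counts do not show whether these reads come from intact transcripts. The 13 T cell markers summed to between 7478 and 14610 CPM (counts scaled by TMM-adjusted library totals) in every library, and the 8 B cell markers to at most 4.43 CPM. Of 9 tested Th2 markers, edgeR called 2 between genotypes at day 14, the receptor gene Il4ra and the factor Nfil3, both lower in the knockout, and the list's median log2 fold change was 0.015, with 5 of the 9 above 0. These 2 genes make up most of the list's sum in every library, Il4ra alone standing at 1391 to 3768 CPM in knockout and 5362 to 7431 CPM in wild-type libraries at day 14. The 10 Th2 markers summed to 2497, 3913 and 5363 CPM (lowest, median and highest) in knockout cells at day 14, against 7677, 8925 and 9815 CPM in wild-type cells at day 14. At day 7 these Th2 sums ran from 2241 to 3246 CPM in knockout cells, where Il13 stood at 0, and from 3214 to 3787 CPM in wild-type cells, where Il5 and Il13 stood at 0. Wild-type day 14 library 3 stood apart, with 1197 CPM summed over 28 genes of the G2 and M phases, against 177 and 191 CPM in the other wild-type libraries of that day. Without it, 22.5% of the 11755 genes then tested were called between genotypes at day 14, and 30.1% over time in wild-type cells. Calls among the 10 genes that it changed are also given without it, and so are those of named genes of the other lists, a choice made after seeing the data. Lane numbers in the names of the deposited tables start again at a point, which was taken to divide the libraries into 2 inferred sets. The labels do not say whether these are sequencing runs or other batches. All knockout day 14 libraries fell in 1 set and all knockout day 7 libraries in the other. No set therefore holds knockout libraries of both days.

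The regions before the transcription starts were read from the RefSeq promoters of GRCm38.p6, which held 14 starts for 9 of the 10 genes and none for Trp53inp1. The p53 half-site, searched on both strands, occurred in 7.13% of all 32851 promoter windows of the same 250 bases. It was found before Cdkn1a, Ccng1, Mdm2 and Cdkn2d, and was not in the windows of Phlda3, Bbc3, Cdkn1b, Cdkn2a or Cdkn2c. The bases shortly after the starts used for Phlda3 and Bbc3 were not found in their GENCODE transcripts. Those of the other genes with windows were, so the places of the Phlda3 and Bbc3 windows are less sure. The windows printed here are those of 5 genes on which the results turn, with the half-site in capitals and the last base next to the start. Cdkn1a (chr17:29090729-29090978, plus strand) and Phlda3 (chr1:135765835-135766084, plus strand) were called over time in both genotypes. Ccng1 (chr11:40755287-40755536, minus strand) was called over time in wild-type cells, and Mdm2 (chr10:117710759-117711008, minus strand) in no comparison. Cdkn2c (chr4:109666757-109667006, minus strand) was called between genotypes.
Cdkn1a: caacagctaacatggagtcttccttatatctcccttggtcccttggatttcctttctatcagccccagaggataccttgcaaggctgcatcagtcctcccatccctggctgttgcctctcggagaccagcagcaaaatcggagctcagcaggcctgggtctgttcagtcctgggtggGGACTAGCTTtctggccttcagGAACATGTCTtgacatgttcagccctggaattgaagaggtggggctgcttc
Phlda3: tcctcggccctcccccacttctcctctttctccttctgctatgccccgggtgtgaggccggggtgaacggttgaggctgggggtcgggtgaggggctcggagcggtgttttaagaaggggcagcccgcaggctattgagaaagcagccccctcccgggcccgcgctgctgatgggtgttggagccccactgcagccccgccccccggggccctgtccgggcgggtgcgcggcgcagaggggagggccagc
Ccng1: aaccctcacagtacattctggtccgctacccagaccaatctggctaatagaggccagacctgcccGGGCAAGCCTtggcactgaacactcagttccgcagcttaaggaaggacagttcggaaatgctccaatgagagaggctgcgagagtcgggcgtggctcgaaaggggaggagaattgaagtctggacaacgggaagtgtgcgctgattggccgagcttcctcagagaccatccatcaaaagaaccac
Mdm2: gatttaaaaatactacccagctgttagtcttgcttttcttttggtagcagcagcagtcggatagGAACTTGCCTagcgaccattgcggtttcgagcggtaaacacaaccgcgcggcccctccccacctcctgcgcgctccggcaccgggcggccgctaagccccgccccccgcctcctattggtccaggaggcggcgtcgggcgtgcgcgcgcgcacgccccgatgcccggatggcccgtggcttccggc
Cdkn2c: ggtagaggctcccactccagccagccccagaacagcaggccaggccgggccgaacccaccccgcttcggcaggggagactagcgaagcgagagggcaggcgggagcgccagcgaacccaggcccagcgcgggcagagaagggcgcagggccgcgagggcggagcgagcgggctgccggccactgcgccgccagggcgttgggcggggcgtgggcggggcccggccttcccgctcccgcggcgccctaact
The printed window of Cdkn1a held 2 half-sites, GGACTAGCTT at 73 to 64 bases and GAACATGTCT at 51 to 42 bases before its start. The window of the other Cdkn1a start (chr17:29093519-29093768, plus strand) held no half-site. Ccng1 held GGGCAAGCCT at 185 to 176 bases and Mdm2 held GAACTTGCCT at 186 to 177 bases before it. The E2F-type word TTTCCCGC, present in 0.895% of the windows, was found 99 to 92 bases before a start of Cdkn2a. The windows of Cdkn2c held neither this word nor TTTCGCGC or TTTGGCGC. A match describes letters and does not show that a factor binds there.

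Between genotypes, 1 of the 9 tested genes was called at day 14 and 0 at day 7. Cdkn2c, which encodes the CDK4 and CDK6 inhibitor p18INK4c, was 3.55-fold higher in knockout cells at day 14. Over time, Cdkn1a and Phlda3 rose in both genotypes and Cdkn2c rose in knockout cells. Ccng1 was called in wild-type cells alone, with log2 fold changes of 1.21 there and 1.04 in knockout cells. That call was lost in 13 of the 14 fits without 1 library. Called means an adjusted p under 0.05 by edgeR's quasi-likelihood test, with the Benjamini-Hochberg method over all tested genes. Between genotypes, 1.42% of all tested genes were called at day 14 and 0.0949% at day 7. At day 7, 1 of the 9 genes (Cdkn1a) had an unadjusted p under 0.05 in edgeR, as had 23.4% of all tested genes. DESeq2 gave no adjusted p for Cdkn1a in any comparison, so it could not call that gene. Of the rest of the 9 it called 0 there, beside 4.05% of all genes. Limma-voom with sample weights called 3 (Cdkn1a, Cdkn2d and Trp53inp1) and 43.5% of all genes, so its count is not above its background. At day 14, 21.7% of all genes had an unadjusted p under 0.05, DESeq2 called 8.6% and limma-voom 16.7%, and both called Cdkn2c of the 9. For day 14 against day 7, 15.5% of all tested genes were called in knockout and 20.5% in wild-type cells, and 3 of the 9 genes in each. These shares are also the background for the gene lists that follow. For the interaction of genotype and day, in which 0.0863% of all tested genes were called, edgeR called 0 of the 9 (2 with an unadjusted p under 0.05, Cdkn1a and Cdkn2c), and DESeq2 and limma-voom 1 each (Cdkn2c), beside 7.97% of all genes with an unadjusted p under 0.05, 1.41% called by DESeq2 and 4.06% by limma-voom. The comparisons share groups with one another. The median log2 fold change of the 9 genes between genotypes was -0.42 at day 14, against 0.01 for all tested genes, and 0.21 at day 7, against -0.01. For day 14 against day 7 it was 0.44 in knockout cells, against 0.02 for all genes, and 0.28 in wild-type cells, against 0.00.

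**Figure D1:**
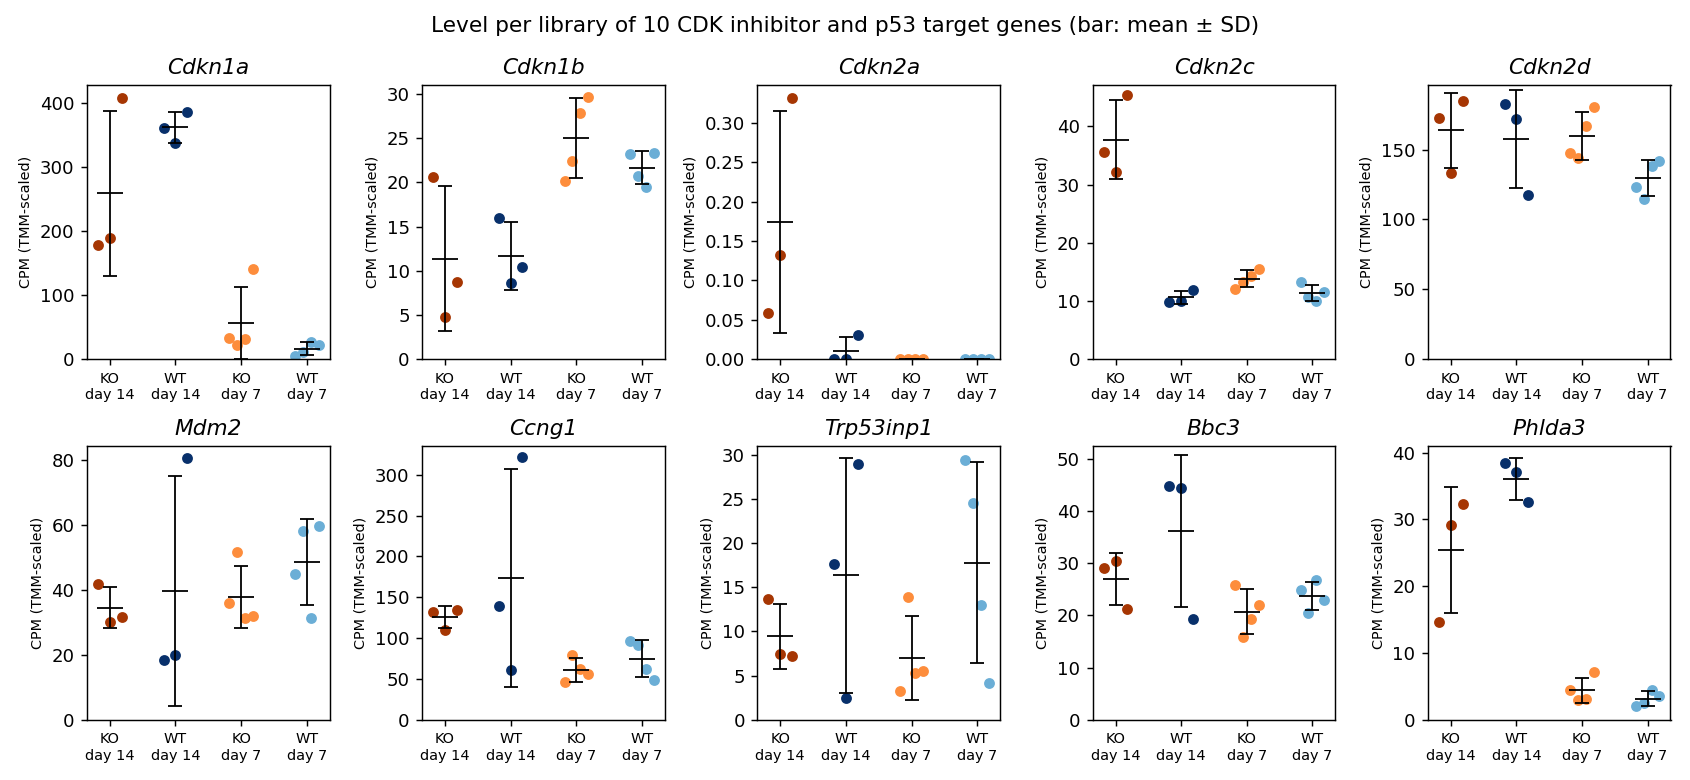
Level in CPM (y axes, linear from 0, TMM-scaled) of the 10 genes, with 1 point per library and bars for mean ± SD in the groups named on the x axes (KO, knockout, WT, wild type). Cdkn2c stood at 32.2 to 45.3 CPM in the 3 knockout libraries at day 14 and at 9.89 to 15.5 CPM in the other 11, and Cdkn1a and Phlda3 were higher at day 14 than at day 7 in both genotypes.

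**Figure D2:**
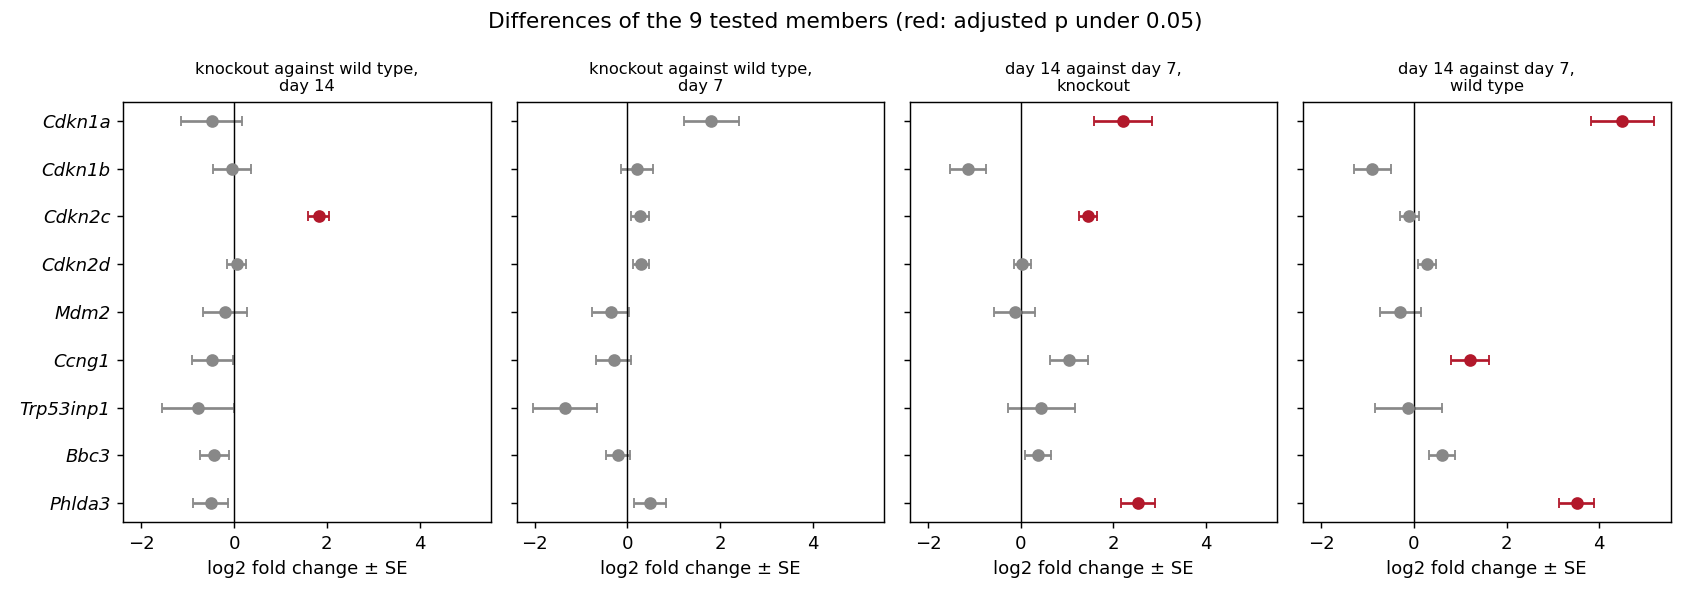
Log2 fold changes (x axes) with their standard errors for the 9 tested genes (rows) in 4 comparisons (panels), in red where the adjusted p was under 0.05. Cdkn2c was called between genotypes at day 14 (1.83), and Cdkn1a and Phlda3 were called over time in both genotypes.

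Cdkn1a, whose product p21 arrests the cell cycle downstream of p53, was higher in every day 14 library than in any day 7 library. It stood at 179, 189.6 and 408 CPM in knockout libraries and at 362, 337 and 387 CPM in wild-type libraries at day 14. At day 7 it stood at 32.7, 21.8, 30.95 and 140.2 CPM in knockout libraries and at 4.79, 11.4, 26.7 and 21.4 CPM in wild-type libraries. Knockout day 7 library 4 lay above the other day 7 libraries, and the groups of the 2 days did not overlap. The log2 fold change for day 14 against day 7 was 2.20 ± 0.63 in knockout cells (SE, adjusted p = 0.028, 4.59-fold) and 4.50 ± 0.68 in wild-type cells (adjusted p = 0.000406, 22.6-fold). The difference between these changes was -2.30 ± 0.89 (95% interval -4.20 to -0.39) and did not pass the test across all genes (adjusted p = 0.51), and it was -1.33 without knockout day 7 library 4. The knockout call was lost without knockout day 7 library 1 (2.01), 2 (1.93) or 3 (2.00), without knockout day 14 library 3 (1.71, adjusted p = 0.147), and with the inferred set as a term (3.17, adjusted p = 0.108). Without knockout day 7 library 4 the knockout change was 3.16 (adjusted p = 0.00172). Sums of some markers of other cells also differed between the days. The 8 markers of CD8 T and NK cells summed to 64.6 to 491 CPM in knockout and 202 to 3546 CPM in wild-type cells at day 14, against 12.6 to 26.2 and 9.02 to 12.8 CPM at day 7, with Ncr1 at 0 in all groups. The day 14 sums were mostly Gzma, a granzyme gene, at 47.98 to 439.5 CPM in knockout and 193.3 to 3535 CPM in wild-type cells. Of the defining markers, Cd8a stood at 0 in wild-type and at most 0.302 CPM in knockout libraries at day 14, and Cd8b1 at 11.4 to 20.3 CPM in knockout and 6.32 to 7.92 CPM in wild-type libraries, against 10.4 to 20.9 and 6.61 to 10.1 CPM at day 7. Prf1 was below 1 CPM in every library. The 13 myeloid and dendritic cell markers summed to 17.8 to 28.8 CPM in knockout and 10.3 to 32.1 CPM in wild-type cells at day 14, against 9.93 to 17.4 and 2.87 to 5.77 CPM at day 7. The day 14 sums were mostly Adgre1, at 12.7 to 24.0 CPM in knockout and 6.21 to 24.0 CPM in wild-type libraries. Itgam, Itgax, Clec9a, Xcr1, Flt3 and Cd209a stood at 0 throughout. The part of other cells in the Cdkn1a change was not tested. In bulk RNA, a change in the number of cells that express a gene and a change in its RNA per cell cannot be told apart.

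Between genotypes Cdkn1a was not called. At day 7 the log2 fold change was 1.81 ± 0.59 (adjusted p = 0.154), and 3 of the 4 knockout libraries were above all wild-type libraries. Knockout day 7 library 4 held 140.2 CPM, and without it the log2 fold change was 0.86 (adjusted p = 0.496). At day 14 it was -0.48 ± 0.66 (adjusted p = 0.707), with a 95% interval from -1.91 to 0.94. By the correlation of log2 CPM over the 14 libraries, the genes most like Cdkn1a were Dyrk3 (r = 0.988), Dusp19 (0.983) and Gna15 (0.982). Libraries of a group share genotype and day, so the 14 points are not independent.

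Cdkn1b, whose product p27 keeps resting T cells out of the cycle, averaged less at day 14 and was not called in the edgeR fit of all libraries. It stood at 20.6, 4.71 and 8.78 CPM in knockout and at 16.0, 8.58 and 10.4 CPM in wild-type libraries at day 14. At day 7 it stood at 20.2, 22.4, 27.9 and 29.7 CPM in knockout and at 23.2, 20.7, 19.5 and 23.3 CPM in wild-type libraries. All wild-type day 14 libraries were below all wild-type day 7 libraries, and knockout day 14 library 1 lay within the knockout day 7 range. The log2 fold change for day 14 against day 7 was -1.14 ± 0.39 in knockout cells (adjusted p = 0.0672) and -0.90 ± 0.39 in wild-type cells (adjusted p = 0.127). Without knockout day 14 library 1 both passed the test, with -1.89 in knockout cells (adjusted p = 0.00157) and -0.90 in wild-type cells (adjusted p = 0.0335). The knockout change was also called by DESeq2 (-1.16, adjusted p = 0.023), by limma-voom (-1.65, adjusted p = 0.00211) and with a replicate block (-1.27, adjusted p = 0.0435). The wild-type change was called in a fit of the compared groups alone (-0.92, adjusted p = 0.0391) and with the GC and length offset (-1.29, adjusted p = 0.0438). Between genotypes it was -0.04 ± 0.41 at day 14 and 0.21 ± 0.35 at day 7.

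Among 15 genes of p27 turnover and FOXO control, 2 rose and 3 fell with time in knockout cells, and 1 rose and 2 fell in wild-type cells. Over all tested genes 15.5% and 20.5% were called, so the wild-type count is near its background. Foxo1, a transcription factor of quiescent T cells, fell in both genotypes. It averaged 280.1 ± 71.0 CPM at day 14 against 638 ± 117 CPM at day 7 in knockout cells (SD, n = 3 and 4), and 239 ± 23.9 CPM at day 14 against 896 ± 38.8 CPM at day 7 in wild-type cells. Klf2, which holds T cells at rest, fell as well, by 2.30 ± 0.51 in knockout and by 2.48 ± 0.51 in wild-type cells on the log2 scale. Foxo3 fell by 0.77 ± 0.23 in knockout cells. Skp2, which marks p27 for destruction, rose in knockout cells (1.34 ± 0.34, adjusted p = 0.0138), as did its cofactor Cks1b (2.40 ± 0.43, adjusted p = 0.00167). Fbxo4, another F-box gene, rose in wild-type cells (0.70 ± 0.23, adjusted p = 0.0441), a call lost without wild-type day 14 library 3 (0.64, adjusted p = 0.0684). Cks1b was the 1 gene of this list called between genotypes at day 14, where it averaged 20.8 ± 11.4 CPM in the knockout and 3.37 ± 2.20 CPM in wild-type libraries (SD, n = 3 each). Without that library, 4 of the 15 were called between genotypes, beside 22.5% of all genes, so this count is near its background.

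Cdkn2c was the gene of the 10 called between genotypes. At day 14 it stood at 35.6, 32.2 and 45.3 CPM in knockout libraries and at 9.89, 10.1 and 11.9 CPM in wild-type libraries. At day 7 it stood at 12.1, 13.3, 14.2 and 15.5 CPM in knockout libraries and at 13.2, 10.7, 9.99 and 11.6 CPM in wild-type libraries. The 3 knockout libraries of day 14 lay above every other library. Knockout against wild type, the log2 fold change was 1.83 ± 0.22 at day 14 (adjusted p = 0.00144) and 0.28 ± 0.19 at day 7 (adjusted p = 0.379). Day 14 against day 7, it was 1.45 ± 0.20 in knockout cells (adjusted p = 0.000334, 2.74-fold) and -0.10 ± 0.20 in wild-type cells (adjusted p = 0.775). The difference of the genotype effect between the days was 1.55 ± 0.29 (95% interval 0.93 to 2.17) and did not pass the test across all genes (adjusted p = 0.069), but did without wild-type day 14 library 3 (1.64, adjusted p = 0.0114). The day 14 call held when any 1 library was left out (1.67 to 1.93, adjusted p 0.00063 to 0.0153) and with the inferred set as a term (1.76, adjusted p = 0.0062). With that term the knockout change over time was 1.24 (adjusted p = 0.0422). It was lost in a fit of the 6 day 14 libraries alone (1.72, adjusted p = 0.236), in which 0 of 11238 genes were called and 1157 had an unadjusted p under 0.05.

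The knockout day 14 libraries also had the highest sums of G2 and M phase genes. For S phase genes, knockout library 1 of that day stood below wild-type library 3. The 28 genes of the G2 and M phases summed to 1358, 1955 and 2784 CPM in knockout and to 177, 191 and 1197 CPM in wild-type libraries at day 14, against 155 to 323 CPM in knockout libraries and 159 to 183 CPM in wild-type libraries at day 7. The 25 S phase genes summed to 2314, 5226 and 5621 CPM in knockout and to 1931, 1987 and 3882 CPM in wild-type libraries at day 14. Wild-type library 3, at 1197 CPM of G2 and M genes, held 11.9 CPM of Cdkn2c, and knockout library 1, at 1358 CPM, held 35.6 CPM. At day 14, 3 of the 28 G2 and M genes were called higher in knockout cells, Cenpa (2.00 ± 0.29), Cdc20 (2.33 ± 0.44) and Plk1 (2.51 ± 0.55), and the list's median log2 fold change was 1.87, against 0.01 for all genes. DESeq2 called 11 and limma-voom with sample weights 25 of these 28 genes, beside 8.6% and 16.7% of all genes. Of the 25 S phase genes edgeR called 0 between genotypes at day 14 (14 with an unadjusted p under 0.05), DESeq2 6 and limma-voom 19, with a median of 1.07. Without wild-type day 14 library 3, edgeR called 26 of the 28 and 21 of the 25, beside 22.5% of all genes, and Cdc20 and Plk1 stood at 3.08 and 3.59. The 10 mast cell and basophil markers summed to 23.4 to 132 CPM in knockout and to 3.91 to 8.03 CPM in wild-type cells at day 14, against 53.4 to 86.8 and 35.0 to 70.3 CPM at day 7. The knockout sums of day 14 were mostly Cpa3, at 12.9 to 120.3 CPM, and Kit, at 2.02 to 9.59 CPM. There 7 of the 10 stood at 0 (Mcpt4, Mcpt8, Fcer1a, Ms4a2, Tpsb2, Cma1 and Gata2), and 4 did in wild-type cells at day 14 (Mcpt4, Mcpt8, Ms4a2 and Cma1). The part of cell division and of other cell types in the Cdkn2c difference was not tested. The genes most like Cdkn2c over the 14 libraries were Cks1b (r = 0.938), Poc1a (0.932) and Hsd11b1 (0.932).

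**Figure D3:**
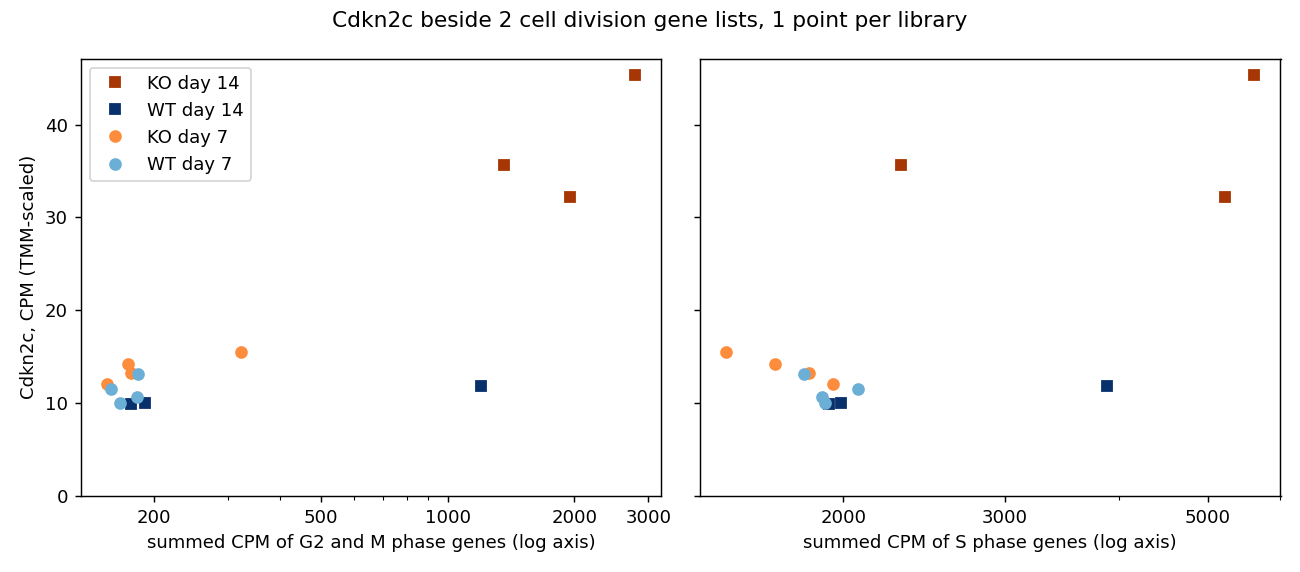
Cdkn2c (y axis, CPM, linear from 0) against the summed CPM of 28 G2 and M phase genes (left) and 25 S phase genes (right), on log x axes, with 1 point per library. Wild-type day 14 library 3 had 1197 CPM of G2 and M genes and 11.9 CPM of Cdkn2c, while knockout day 14 library 1 had 1358 and 35.6 CPM.

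Cdkn2d, which encodes p19INK4d, was the most abundant inhibitor at day 7 and was called in no comparison. It stood at 173, 133 and 185 CPM in knockout and at 183, 172 and 118 CPM in wild-type libraries at day 14. At day 7 it stood at 147, 144, 167 and 180.4 CPM in knockout and at 123, 114, 139 and 142 CPM in wild-type libraries, and these groups did not overlap. Between genotypes the log2 fold change was 0.06 ± 0.20 at day 14 and 0.30 ± 0.17 at day 7 (adjusted p = 0.297, 95% interval -0.07 to 0.68). An offset for GC content and coding length turned the day 7 direction (-0.12). Day 14 against day 7, it was 0.04 ± 0.19 in knockout and 0.28 ± 0.19 in wild-type cells.

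Cdkn2a, which encodes p16INK4a and p19ARF from overlapping reading frames that the counts do not separate, was near the limit of detection. It had 2, 4 and 11 reads in knockout libraries and 0, 0 and 1 read in wild-type libraries at day 14, and 0 reads in all 8 libraries of day 7. Summed, 17 reads against 1 gave a ratio of 15.6 for knockout over wild type at day 14, with an exact 95% Poisson interval from 2.44 to 651, or 0.175 CPM (0.102 to 0.280) against 0.0112 CPM. Within knockout cells day 14 stood 6.25-fold above a floor of 3 reads over the day 7 group (0.0279 CPM). The exact 95% lower limit for 17 reads against 0 was 4.55-fold. These intervals cover counting error only, and no test between groups was made. Of the 17 reads, 11 lay in knockout library 3. Without that library 6 reads remained, with a ratio to wild type of 8.34 (exact interval 1.01 to 384). They stood 3.35-fold above the day 7 floor, with an exact 95% lower limit of 1.97-fold for 6 reads against 0.

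Cdkn2b, which encodes p15INK4b beside Cdkn2a, had 39, 61 and 66 reads in knockout and 7, 5 and 42 reads in wild-type libraries at day 14, against 0 to 7 reads in every library at day 7. It rose in knockout cells (3.44 ± 0.85, adjusted p = 0.013) and did not pass the test in wild-type cells (2.31 ± 0.87, adjusted p = 0.0783) or between genotypes at day 14 (1.56 ± 0.82, adjusted p = 0.284). The 42 reads came from library 3, the one with high G2 and M sums. Without it the wild-type change was 0.87 (adjusted p = 0.471), and the day 14 genotype difference passed the test at 2.99 (adjusted p = 0.029). Mtap, the metabolic gene next to this locus, averaged 34.9 ± 6.89 CPM in knockout cells and 15.0 ± 8.01 CPM in wild-type cells at day 14, and 29.3 ± 3.10 and 28.7 ± 5.67 CPM at day 7. It fell in wild-type cells with time (by 0.93 ± 0.30, adjusted p = 0.0422), and its genotype difference at day 14 did not pass the test (1.21 ± 0.32, adjusted p = 0.0678), but did without wild-type day 14 library 3 (1.74, adjusted p = 0.00155). Of 13 genes that regulate or adjoin the locus, Zbtb7a, a repressor of ARF, fell with time in knockout cells (by 0.77 ± 0.23), and in wild-type cells Cbx8, a Polycomb gene, rose (0.80 ± 0.24) beside the fall of Mtap. Cdkn2c and Cdkn2a lie on chromosome 4 with the targeted Ago1, at 16.8 and 37.1 megabases from it, and Trp53inp1 at 115.3 megabases.

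Of 6 further CDK inhibitors and pocket protein genes, 2 rose and 1 fell with time in knockout cells and 1 rose in wild-type cells, the last being Cdkn3. Cdkn3, a phosphatase that acts on CDK2, rose by 3.75 ± 0.77 in knockout (adjusted p = 0.00425) and by 2.38 ± 0.77 in wild-type cells (adjusted p = 0.0424). The wild-type rise rested on day 14 library 3, with 13, 20 and 166 reads in the 3 wild-type libraries of that day, and without it was 0.52 (adjusted p = 0.554). Cdkn1c, which encodes the Cip/Kip inhibitor p57, fell in knockout cells to 3.92 ± 0.37 CPM at day 14, against 8.73 ± 1.59 CPM at day 7 (log2 fold change -1.16 ± 0.31, adjusted p = 0.0198). In wild-type cells Cdkn1c averaged 6.13 ± 2.45 and 6.37 ± 1.28 CPM at day 14 and day 7. At day 14 edgeR called 0 of the 6 between genotypes (1 with an unadjusted p under 0.05), and DESeq2 and limma-voom 1 each. Cdkn1c stood at -0.64 ± 0.32 in that comparison (adjusted p = 0.259), and passed the test without wild-type day 14 library 3 (-0.91, adjusted p = 0.0362).

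Set beside each other per length, in the authors' RPKM, the inhibitors changed places between the days. Of the summed RPKM of Cdkn1a, Cdkn1b, Cdkn2c and Cdkn2d, Cdkn1a made up 54.9 ± 9.46% in knockout and 68.5 ± 5.49% in wild-type cells at day 14 (SD, n = 3 each), against 20.6 ± 13.3% in knockout and 9.33 ± 4.97% in wild-type cells at day 7 (n = 4 each). Cdkn2d made up 34.9 ± 7.03% and 27.8 ± 5.60% at day 14 in knockout and wild-type cells, and 65.0 ± 11.03% and 73.4 ± 2.10% at day 7. Every day 14 library held more RPKM of Cdkn1a than of Cdkn2d, and no day 7 library did. Cdkn2c made up 8.05 ± 1.08% in knockout and 1.91 ± 0.25% in wild-type cells at day 14, against 5.68 ± 1.05% and 6.60 ± 1.32% at day 7. The Cdkn1b share was 2.16 ± 1.81% and 1.77 ± 0.51% at day 14, and 8.72 ± 1.45% and 10.7 ± 1.62% at day 7. The 4 genes together stood at 417 ± 110 RPKM in knockout and 482 ± 19.6 RPKM in wild-type cells at day 14, against 198 ± 51.5 and 141 ± 14.1 RPKM at day 7. RNA shares do not give the amounts of the proteins.

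**Figure D4:**
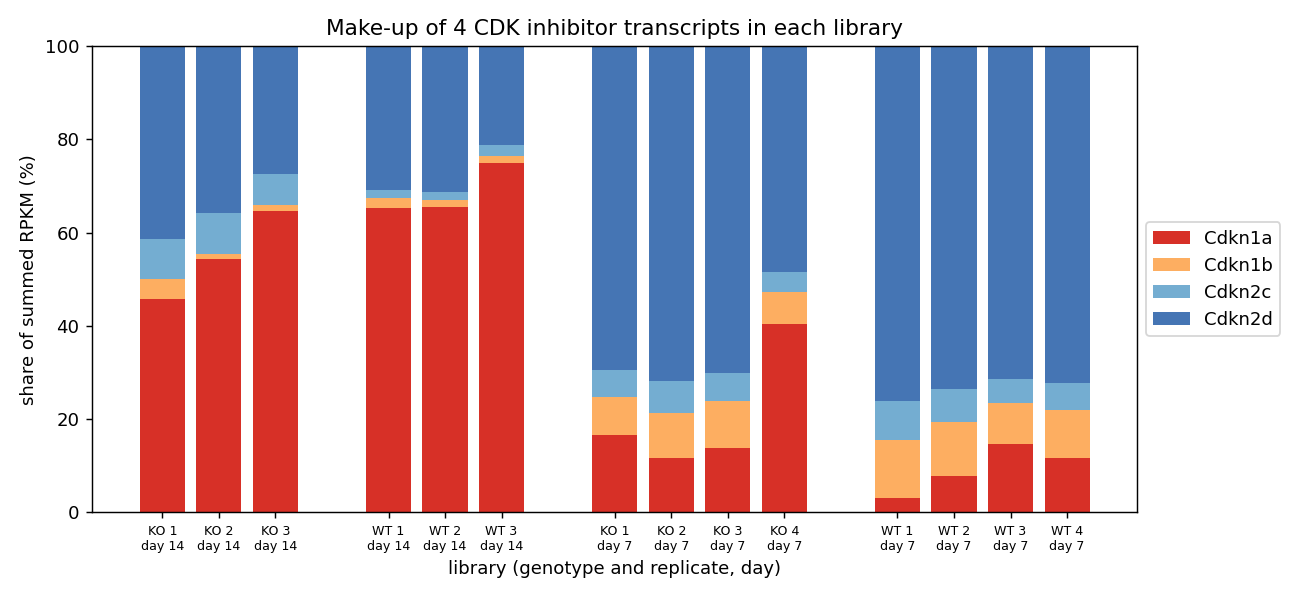
Share of each of 4 CDK inhibitor genes in their summed RPKM (y axis, percent) in every library (x axis). Cdkn1a held 45.8 to 74.9% of the sum in the 6 libraries of day 14 and 3.17 to 40.3% in the 8 libraries of day 7, where Cdkn2d was the largest part.

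Phlda3, a p53 target whose product restrains the kinase AKT, rose with time as Cdkn1a did. It stood at 14.6, 29.2 and 32.3 CPM in knockout and at 38.5, 37.1 and 32.6 CPM in wild-type libraries at day 14. At day 7 it stood at 4.52, 2.91, 3.16 and 7.08 CPM in knockout and at 2.06, 2.51, 4.47 and 3.59 CPM in wild-type libraries. No day 14 library overlapped a day 7 library, and all knockout libraries of day 14 lay below all wild-type ones of that day. Day 14 against day 7, the log2 fold change was 2.53 ± 0.37 in knockout cells (adjusted p = 0.000446, 5.76-fold) and 3.52 ± 0.38 in wild-type cells (adjusted p = 3.23e-05, 11.4-fold). Both calls held in every fit without 1 library and in every other setting run. Between genotypes it was -0.51 ± 0.38 at day 14 (adjusted p = 0.452) and 0.48 ± 0.34 at day 7 (adjusted p = 0.402), and the difference between those was -0.99 ± 0.51 (adjusted p = 0.684). The genes most like it over the 14 libraries were Bcl3 (r = 0.995), Stk35 (0.99) and Bcam (0.988).

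Ccng1, which encodes cyclin G1, a partner of Mdm2 and a p53 target, was called over time in wild-type cells alone. It stood at 132, 110.1 and 135 CPM in knockout and at 139, 61.4 and 322 CPM in wild-type libraries at day 14, and at 45.8 to 79.9 CPM in knockout libraries and 49.3 to 96.9 CPM in wild-type libraries at day 7. The knockout libraries of the 2 days did not overlap, and wild-type day 14 library 2 lay within the wild-type day 7 range. The log2 fold change for day 14 against day 7 was 1.04 ± 0.41 in knockout cells (adjusted p = 0.11) and 1.21 ± 0.41 in wild-type cells (adjusted p = 0.05 when rounded, just under the threshold). The wild-type call was lost in 13 of the 14 fits without 1 library, and without wild-type day 14 library 3 the change was 0.42 (adjusted p = 0.346) in wild-type and 1.04 (adjusted p = 0.0237) in knockout cells. With the inferred set as a term the change over time was -0.14 in knockout and 0.52 (adjusted p = 0.392) in wild-type cells. The genes most like it were Bmpr1a (r = 0.946), Skil (0.934) and Fut8 (0.933).

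Mdm2, the ubiquitin ligase that turns over p53 and is itself induced by it, was not called. It stood at 41.7, 30.0 and 31.8 CPM in knockout and at 18.3, 19.9 and 80.5 CPM in wild-type libraries at day 14, and at 31.5 to 51.6 CPM in knockout libraries and 31.3 to 59.7 CPM in wild-type libraries at day 7. Wild-type library 3 of day 14 was the highest of all 14 libraries and the other wild-type libraries of that day the lowest. Between genotypes the log2 fold change was -0.20 ± 0.47 at day 14 and -0.36 ± 0.41 at day 7. Without wild-type day 14 library 3, it was 0.85 at day 14 (adjusted p = 0.0601), and day 14 against day 7 in wild type passed the test at -1.35 (adjusted p = 0.00571), against -0.29 ± 0.44 with it.

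Trp53inp1, a stress protein that helps p53 and takes part in autophagy, spread widely within groups and was not called. It stood at 13.7, 7.45 and 7.24 CPM in knockout and at 17.7, 2.47 and 28.9 CPM in wild-type libraries at day 14. At day 7 it stood at 3.23, 13.9, 5.26 and 5.49 CPM in knockout and at 29.4, 24.5, 12.9 and 4.18 CPM in wild-type libraries. The groups overlapped at both days. The log2 fold change of knockout against wild type was -0.79 ± 0.78 at day 14 (adjusted p = 0.577) and -1.35 ± 0.68 at day 7 (adjusted p = 0.243). The day 14 value was -0.087 (adjusted p = 0.951) without wild-type day 14 library 3.

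Bbc3 encodes PUMA, a BH3-only protein that triggers apoptosis downstream of p53, and it was not called. It stood at 29.1, 30.5 and 21.3 CPM in knockout and at 44.8, 44.4 and 19.3 CPM in wild-type libraries at day 14, and at 15.8 to 25.8 CPM in knockout libraries and 20.5 to 26.7 CPM in wild-type libraries at day 7. At day 14 wild-type libraries 1 and 2 were above all knockout libraries and library 3 below them. Knockout against wild type, the log2 fold change was -0.42 ± 0.30 at day 14 (adjusted p = 0.426) and -0.20 ± 0.26 at day 7 (adjusted p = 0.67). Without wild-type day 14 library 3 the day 14 difference passed the test at -0.73 (adjusted p = 0.0453), and so did day 14 against day 7 in wild type at 0.91 (adjusted p = 0.00949), which was 0.61 ± 0.28 (adjusted p = 0.152) with it. Of 6 tested BH3-only genes, Bik was called over time, in knockout (1.08 ± 0.28, adjusted p = 0.0171) and in wild-type cells (1.99 ± 0.28, adjusted p = 0.000247). Bcl2l11, which encodes the BH3-only protein BIM and is a FOXO target, was not called, with 14.9 ± 4.94 CPM in the knockout and 19.6 ± 5.002 CPM in wild-type cells at day 14.

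Within groups, Ccng1, Trp53inp1 and Mdm2 were often highest in the same library. All 3 were highest of their group in wild-type day 14 library 3 and in knockout day 7 library 2, and Trp53inp1 and Ccng1 in wild-type day 7 library 1. In wild-type day 14 library 3 Bbc3, Cdkn2d and Phlda3 were the lowest of their group. Cdkn1a and Phlda3 were both highest of their group in knockout day 14 library 3, knockout day 7 library 4 and wild-type day 7 library 3. In wild-type day 14 library 3 they parted, with Cdkn1a the highest of its group (387 CPM) and Phlda3 the lowest (32.6 CPM). Values of 1 library share its RNA and depth, and no test was made.

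**Figure D5:**
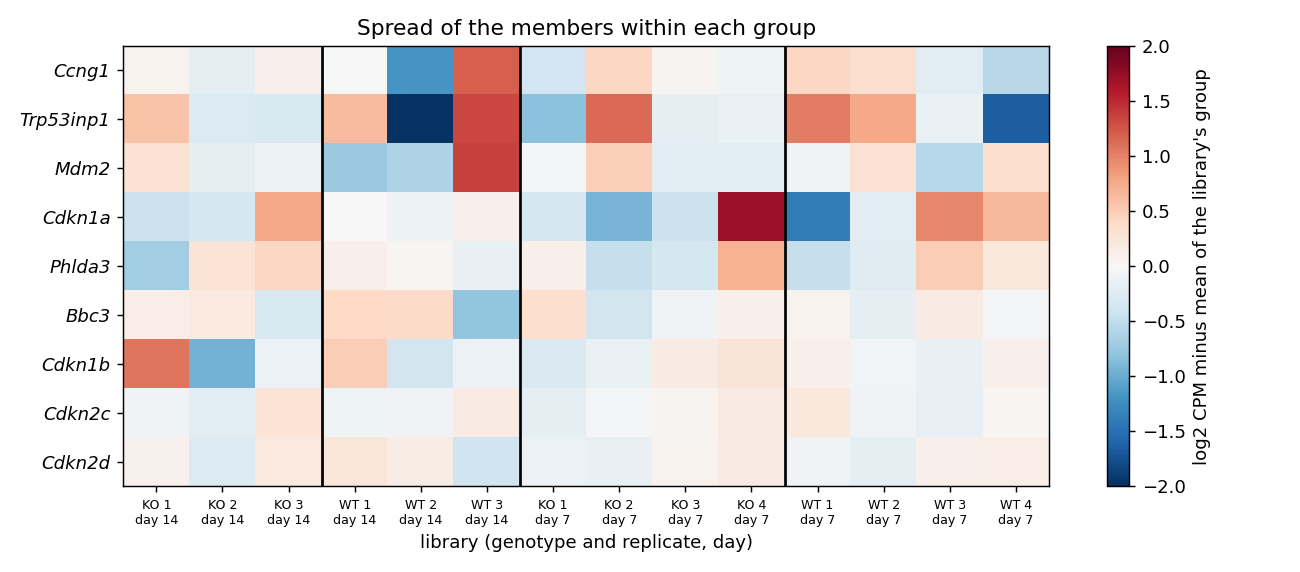
Deviation of each library (columns) from the mean log2 CPM of its own group for the 9 tested genes (rows), in colours from -2 (blue) to 2 (red), with lines between groups. In wild-type day 14 library 3 Ccng1, Trp53inp1 and Mdm2 were above their group and Bbc3 below it, and Cdkn1a and Phlda3 were above theirs in knockout day 7 library 4.

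Trp53 itself, the gene of p53, did not pass the test in any comparison. It averaged 425 ± 92.8 CPM in knockout cells and 361 ± 93.9 CPM in wild-type cells at day 14 (SD, n = 3 each), against 433 ± 44.3 and 400.4 ± 43.1 CPM at day 7 (n = 4 each). Mdm4, the second inhibitor of p53, averaged 5.61 ± 2.31 CPM in knockout cells and 9.74 ± 8.49 CPM in wild-type cells at day 14 and was not called either, except over time in wild-type cells without day 14 library 3 (-1.59, adjusted p = 0.0386). Of 19 tested genes of p53 and its regulators, 1 was called between genotypes at day 14. This was Hipk2, a kinase that phosphorylates p53, with 24.9 ± 12.0 CPM in the knockout and 83.4 ± 40.1 CPM in wild-type libraries (log2 fold change -1.75 ± 0.38, adjusted p = 0.0359). Over time, 3 rose in knockout cells, namely the checkpoint kinases Chek2 (1.26 ± 0.33) and Chek1 (4.87 ± 1.30) and the p53 relative Trp73 (2.81 ± 0.83). In wild-type cells Trp73 (5.20 ± 0.90), Hipk2 (1.28 ± 0.34) and Chek1 (4.94 ± 1.40) rose, and Usp7, a deubiquitinase that acts on Mdm2 and p53, fell by 0.98 ± 0.30. These counts, 3 of 19 in knockout and 4 of 19 in wild-type cells, are near the 15.5% and 20.5% of all genes called. Wild-type Chek1 had 9, 0 and 173 reads at day 14, so its rise rested on library 3, and without that library Chek1 stood at 1.42 (adjusted p = 0.426) and Hipk2 at 0.81 (adjusted p = 0.0686). Trp73 averaged 0.630 ± 0.455 CPM in knockout cells and 1.37 ± 0.67 CPM in wild-type cells at day 14, so it stayed a low gene.

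Of 35 other tested p53 target genes, 15 rose and 0 fell with time in knockout cells and 16 rose and 2 fell in wild-type cells, beside 10.5% and 13.2% of all tested genes called higher. Their median log2 fold change was 0.79 in knockout and 0.92 in wild-type cells, against 0.02 and 0.00 for all genes. Zmat3, a p53-induced zinc finger gene of RNA processing, rose by 2.32 ± 0.31 in knockout (adjusted p = 0.000225) and 2.23 ± 0.31 in wild-type cells (adjusted p = 0.000189). Psrc1, a gene of the mitotic spindle, averaged 55.2 ± 20.4 CPM in knockout cells and 48.9 ± 20.2 CPM in wild-type cells at day 14, against 5.18 ± 4.02 and 2.42 ± 0.81 CPM at day 7. Gtse1, which carries p53 out of the nucleus in G2, rose in knockout cells by 2.84 ± 0.41, and Ak1, an adenylate kinase, by 4.48 ± 0.78. Plk3, a stress-induced polo-like kinase, rose in wild-type cells by 1.58 ± 0.25 and Trp53i11 by 2.07 ± 0.33. Gtse1, Ak1, Plk3 and Trp53i11 were each called higher over time in both genotypes. The 2 genes that fell in wild-type cells were Sesn1 (by 1.15 ± 0.25), a stress-induced regulator of mTORC1, and Sfn (by 1.57 ± 0.47), which encodes 14-3-3 sigma and whose call was lost without wild-type day 14 library 3 (-1.28, adjusted p = 0.0664). Between genotypes edgeR called 0 of the 35 at either day, with medians of -0.01 at day 14 and 0.03 at day 7. At day 14, 7 had an unadjusted p under 0.05, DESeq2 called 0 and limma-voom 4, beside 21.7%, 8.6% and 16.7% of all genes. At day 7, 9 had an unadjusted p under 0.05, DESeq2 called 0 and limma-voom 14, beside 23.4%, 4.05% and 43.5% of all genes. The counts of 7, 9 and 14 genes are near their background. The smaller counts are below theirs, and no test of the list as a whole was made. At day 14 edgeR called 1 higher and 4 lower without wild-type library 3, beside 22.5% of all genes. The knockout count of 15 became 9 without knockout day 14 library 2, where 783 of 11778 genes were called higher. With the inferred set as a term it became 4, where 263 of 11591 genes were called higher, against 1222 without that term. The wild-type count stayed between 12 and 19 in the settings run.

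Of 19 tested genes of G1 cyclins, CDKs and E2F factors, which the inhibitors restrain, 9 rose with time in knockout and 5 in wild-type cells, beside 10.5% and 13.2% of all tested genes called higher. The wild-type count was 3 without wild-type day 14 library 3, beside 1695 of 11755 genes called higher. Between genotypes at day 14 edgeR called 0 of them. At an unadjusted p under 0.05 there were 5, and DESeq2 called 1 and limma-voom 6, beside 21.7%, 8.6% and 16.7% of all genes. Without wild-type day 14 library 3 edgeR called 9, beside 22.5% of all genes. E2f1, an activator of S phase genes, averaged 78.3 ± 37.1 CPM in knockout cells and 45.0 ± 10.1 CPM in wild-type cells at day 14, against 19.4 ± 2.15 and 20.2 ± 1.31 CPM at day 7. Cdk6, the partner of D-type cyclins and target of the INK4 proteins, rose by 2.52 ± 0.53 in knockout and 3.03 ± 0.54 in wild-type cells (1.74, still called, without wild-type day 14 library 3). The repressors E2f7 and E2f8, which curb E2f1, rose by 5.62 ± 0.99 and 6.15 ± 1.11 in knockout cells and by 4.55 ± 1.03 and 3.02 ± 1.01 in wild-type cells. The wild-type rises rested on day 14 library 3, where E2f7 had 238 reads against 13 and 11 in the other libraries of that day, and E2f8 227 against 3 and 24. Without it neither was called (1.86, adjusted p = 0.0815, and 0.51, adjusted p = 0.68), and wild-type E2f8 overlapped between days. Of the 28 G2 and M genes, 24 rose in knockout and 15 in wild-type cells. Without wild-type day 14 library 3 the wild-type count was 2, beside 1695 of 11755 genes called higher. With the inferred set as a term both counts were 2, beside 263 of 11591 genes called higher in knockout and 1253 in wild-type cells.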

How the data were processed

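For each of the 14 libraries the authors deposited read counts (whole numbers), RPKM values and widths in bases per gene, per the file headers. Alignment was by GSNAP 2013-11-01 on GRCm38, per the submitters' processing notes. The tool, annotation and strand setting of the counting were not given in the sources used here. No other annotated gene shares coding exons with the 10 genes. GENCODE vM21 gave symbols for 22457 of the 22598 identifiers. Counts were fitted in R 4.3.3 with edgeR 4.0.16 (filterByExpr, TMM, robust quasi-likelihood, a mean for each group, all libraries in 1 fit, common BCV 0.354) and Benjamini-Hochberg adjustment over all tested genes. The SE is the log2 fold change divided by the square root of F, and intervals use the t quantile of the fit. RPKM served only for shares between genes. Alternatives were other scalings and filters, the compared groups alone, DESeq2 1.42.0 and limma-voom (limma 3.58.1) with sample weights. Further ones were a GC and coding length offset (values for 99.6% of tested genes), the replicate number as a block, the inferred set as a term, and each library left out. The list counts under these settings and the values of other genes without 1 library were added after seeing the data. The fits were also run on simulated data with the common BCV for every gene and no outlying library, unlike these data. The genes, lists and tests were chosen with earlier results of these data known. Ago3, Ago4 and single marker genes are named after their values were seen. Named by rule besides the 10 are Ago1, Trp53, Mdm4, Cdkn1c, Cdkn2b, Bcl2l11, Mtap, up to 4 called genes per list and comparison with the smallest adjusted p, and the 3 genes most like each called gene by Pearson correlation of log2(CPM + 0.5), among genes averaging at least 5 CPM. Replicate numbers were not taken to pair the libraries, though so few libraries cannot exclude pairing. No pair of libraries of the same group agreed within sampling noise, and pairs across groups were not compared.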

Additional observations from a re-analysis of the deposited data

Results flagged for a closer look

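Cdkn1a in knockout day 7 library 4 lay far from the other libraries of its group, at 140.2 CPM against 32.7 CPM for the next highest, a gap of 0.908 of the group's whole range. Chance flags about 1 in 20 groups of this size. Other genes and groups were screened by the same rule, so 1 flag does not set this library apart from chance. The gap was taken on linear CPM. On the log2 scale this library stood at 1.726 from its group mean, and libraries 1, 2 and 3 at -0.358, -0.931 and -0.436. On that scale the gap was a smaller part of the range. The same library had the highest sum of G2 and M phase genes at day 7, at 323 CPM, and the highest Phlda3 at day 7, at 7.08 CPM. The part of either in the Cdkn1a level was not tested.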

How the results depend on the processing

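The number of the 9 genes called changed with the tool. Between genotypes at day 7 it was 3 with limma-voom and sample weights, which called 43.5% of all genes there, against 0. At day 14 it was 0 in the fit of the compared groups alone, against 1, with 0 of 11238 genes called in all. For the interaction it was 1 (Cdkn2c) with DESeq2, limma-voom and the GC and length offset, against 0. In wild type over time it was 5 with limma-voom, which called 39.5% of all genes, against 3 (Bbc3, Cdkn2d and Mdm2 gained, Ccng1 lost). Leaving out 1 library gave 0 calls at day 7, 1 to 2 at day 14 and 0 to 1 for the interaction, the higher ones without wild-type day 14 library 3 (Bbc3 and Cdkn2c, and Cdkn2c), and 2 to 4 over time in each genotype. Without that library 2640 genes were called between genotypes at day 14, against 165. The interaction split of 7 higher and 3 lower calls over all genes became 5 and 5 by library totals and 8 and 7 by upper-quartile factors, which moved the median of all genes by 0.11 in wild type over time.

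Directions that turned were all of genes not called, and the cause was not tested. The GC and length offset gave Cdkn1b -0.20, Cdkn2c -0.28 and Cdkn2d -0.125 at day 7, Cdkn1b 0.15, Cdkn2d 0.13 and Bbc3 0.073 for the interaction, and Cdkn2d -0.20 in wild type and -0.066 in knockout over time. Limma-voom gave Cdkn2d -0.11, Mdm2 0.66 and Ccng1 0.10 at day 14, Ccng1 0.43 for the interaction, and Cdkn2d -0.002 in knockout over time. The inferred set term gave Mdm2 -0.056 and Trp53inp1 -0.22 for the interaction, and Ccng1 -0.14 and Trp53inp1 -1.64 in knockout over time. Library totals gave Cdkn1b 0.067 at day 14, the compared groups alone Cdkn2d -0.034 at day 14, and upper-quartile factors Cdkn2c 0.009 in wild type over time. Leaving out 1 library moved through 0 the day 14 values of Ccng1 (-0.88 to 0.33), Cdkn1b (-0.79 to 0.33), Cdkn2d (-0.12 to 0.18) and Mdm2 (-0.54 to 0.85), and the interaction values of Ccng1 (-0.58 to 0.62), Cdkn1b (-0.996 to 0.12) and Mdm2 (-0.18 to 1.21). Over time it did so in knockout for Cdkn2d (-0.062 to 0.16) and Mdm2 (-0.29 to 0.059), and in wild type for Mdm2 (-1.35 to 0.049) and Trp53inp1 (-0.82 to 0.39).

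Same-numbered libraries of the 2 genotypes at day 7 correlated at -0.116 to 0.417, and differently numbered ones at -0.405 to 0.445. At day 14 the values were 0.0495 to 0.35 and -0.4 to 0.226. The numbers were not taken as pairs, though so few libraries cannot exclude pairing. With the replicate block the number of genes called was 0 at day 7, 1 at day 14, 0 for the interaction, 2 in wild type (Ccng1 lost, 0.99) and 4 in knockout over time (Cdkn1b gained, -1.27). DESeq2 gave no adjusted p for Cdkn1a. Depth limits Cdkn2a.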
